A study of Homo sapiens with 4 samples.

Results

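The inflammatory cytokines and chemokines examined here are 10 genes chosen by name, IL1A, IL1B, IL6, IL11, LIF, CXCL1, CXCL2, CXCL3, CXCL8 and CCL20, out of 59050 gene symbols with a count of reads. The rule names genes and uses no measured value, but it was written with earlier results of these data known. RNA-seq of poly(A) RNA covered 4 libraries that the labels call HepG2, a line grown from a human liver tumor and known to keep a wild-type p53. There were 2 libraries of untreated cells (0 h) and 2 of cells kept for 24 h in doxorubicin (1 ug/ml), which breaks DNA and so activates p53. All 4 cultures were of the same labelled line and grew in the same medium with serum and antibiotics. The untreated cells are a start point and not a culture kept for 24 h without drug, so that the drug and the time in culture cannot be told apart. The titles call the treated libraries p53 and the untreated libraries nop53, and name no drug. The treated samples carry a tag that speaks of a miRNA experiment. The groups follow the titles and the treatment protocol, and only the protocol names the drug.

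The libraries held between 27572740 and 36272180 counts on genes. Untreated replicate 2 stood apart from the others. Its Pearson correlation of log2 CPM (CPM is the count divided by its library's total, times 1000000) over 17479 genes was 0.887 with untreated replicate 1 and between 0.883 and 0.886 with the doxorubicin libraries, against 0.988 between the doxorubicin replicates. These correlations run across genes, which do not count as replicates. The tests of the members and of the lists below were therefore run with and without this library. Of 15 liver markers, 4 passed the filter on low counts, the summed CPM of all 15 lay between 1.05 and 6.41, and ALB had at most 3 counts in any library, so the counts go against the label of a liver cell line. Of 7 markers of general epithelium, 3 passed the filter, among them keratin 8 (KRT8) at a CPM between 2088 and 4105. EPCAM, CDH1, KRT19 and KRT5 did not pass it.

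These genes encode secreted signals by which a cell calls immune cells and alarms its neighbours. IL-1 alpha and IL-1 beta bind the IL-1 receptor and switch on NF-kappaB, a transcription factor that in turn is known to drive IL6 and the CXC chemokines. IL-6, IL-11 and LIF signal through the shared receptor chain gp130 to STAT3, while CXCL1, CXCL2, CXCL3 and CXCL8 draw neutrophils through CXCR1 and CXCR2, and CCL20 draws lymphocytes and dendritic cells through CCR6. Cells with lasting DNA damage are known to secrete many of these factors as part of the senescence-associated secretory programme.

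The members were higher in the doxorubicin libraries than in the untreated libraries, with the exception of CXCL1, which had almost no counts. The filter on low counts left 8 of the 10 to be tested (a CPM of about 0.317 in at least 2 libraries) and removed CXCL1 and CCL20. In all 8, the CPM of both doxorubicin libraries lay above that of both untreated libraries, an order found in 30.3% of the tested genes. With library sizes scaled by TMM, which removes a shift of 0.17 in the median log2 fold change of all genes, the 8 genes kept this order, against 21.3% of all genes. IL1B reached the filter in both doxorubicin libraries but in only 1 untreated library, so that a difference was built into its passing. IL1B and CXCL8 had the largest ratios of the 8 and IL11 had the smallest.

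**Figure D1:**
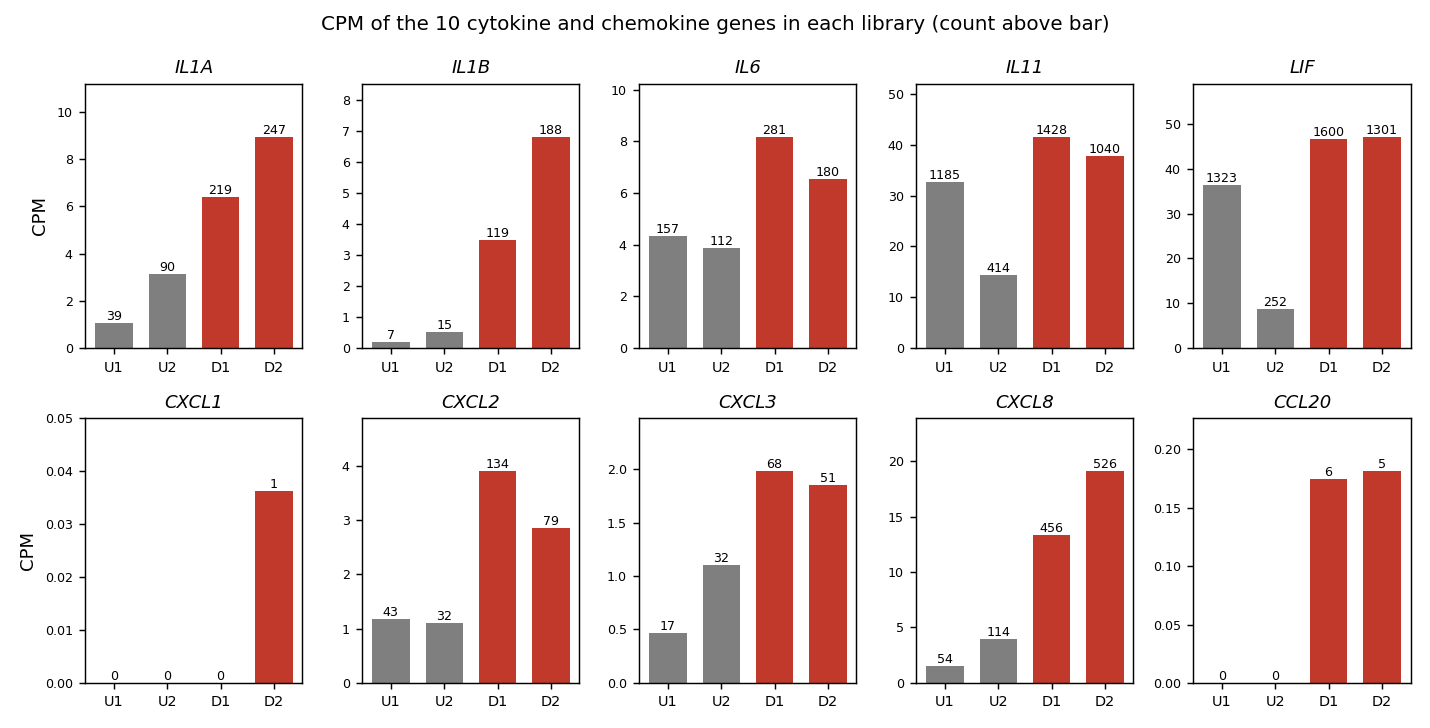
CPM of each of the 10 genes (vertical axes, from 0, with a scale of its own for each gene) in untreated replicates 1 and 2 (U1 and U2, grey) and doxorubicin replicates 1 and 2 (D1 and D2, red), with the number of counts above each bar. Both red bars stand above both grey bars in 9 genes, and CXCL1 has 1 count in all.

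The IL-1 ligands were at low levels in untreated cells. IL1A (chromosome 2, 112773925 to 112784493, GRCh38) encodes IL-1 alpha, an alarm signal held in the cell or on its surface, and was found at 1.08 and 3.12 CPM in the untreated libraries (replicates 1 and 2, as in all pairs of values that follow) and at 6.38 and 8.96 CPM in the doxorubicin libraries. The lowest doxorubicin library was 2.05 times the highest untreated library. IL1A is among the genes that the study linked to a p53-bound enhancer after it had chosen them on these samples, so its direction is not independent of that choice. IL1B (chromosome 2, 112829751 to 112836816) encodes IL-1 beta, which is made as a precursor and cut by caspase-1. It had 7 and 15 counts in the untreated libraries and 119 and 188 in the doxorubicin libraries, a CPM of 0.193, 0.519, 3.47 and 6.82. Both treated libraries lay at least 6.68-fold above either untreated library, although the treated replicates differed from each other by a ratio of 0.509. In both genes untreated replicate 2 was above untreated replicate 1, by 2.90-fold and 2.69-fold. The members went apart on this point, for untreated replicate 2 was at least 2-fold higher in 4 of them (IL1A, IL1B, CXCL3 and CXCL8, against 23.5% of all genes) and at least 2-fold lower in 2 (IL11 and LIF, against 22.5%).

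Of the ligands of the gp130 family, IL11 and LIF had the highest CPM of the members in the doxorubicin libraries and IL6 had a lower one. IL6 (chromosome 7, 22725884 to 22732002), which encodes a main inducer of the acute-phase response, had a CPM of 4.33 and 3.88 in the untreated libraries and of 8.19 and 6.53 in the doxorubicin libraries. The untreated replicates were close, and the mean of the treated libraries was 1.79 times that of the untreated libraries. IL11 (chromosome 19, 55364382 to 55370463), which encodes a cytokine of stromal and epithelial repair, had 32.7 and 14.3 without the drug and 41.6 and 37.7 with it. Untreated replicate 1 almost reached the treated libraries, and with TMM scaling it had a CPM of 34.61 against 34.63 in doxorubicin replicate 2. LIF (chromosome 22, 30240453 to 30246759), which encodes leukemia inhibitory factor, had 36.5 and 8.73 without the drug and 46.6 and 47.2 with it. The difference in LIF and IL11 thus lay mostly in untreated replicate 2, which was 4.18-fold and 2.28-fold below untreated replicate 1, whereas in IL6 the 2 untreated libraries differed by 1.12-fold. In GENCODE release 44, exons of IL6 share 428 bp with the antisense gene IL6-AS1, and those of LIF share 86 bp and 83 bp with LIF-AS1 and LIF-AS2. The use of strand in counting is not given in the sources used here, so within these stretches reads of the gene and of its antisense partner cannot be told apart.

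The neutrophil chemokines lie in a cluster on chromosome 4. CXCL8 (73740519 to 73743716) encodes interleukin 8, and its CPM of 1.49 and 3.95 in untreated cells was set against 13.3 and 19.1 with doxorubicin. The gap between the groups was 3.37-fold at its narrowest. CXCL2 (74097040 to 74099196) had 1.19 and 1.11 without the drug and 3.91 and 2.87 with it, with untreated replicates that differed by 1.07-fold. CXCL3 (74036589 to 74038807) had 0.469 and 1.11 without the drug and 1.98 and 1.85 with it, and its narrowest gap was 1.67-fold. CXCL1 (73869393 to 73871308) had 0, 0, 0 and 1 count in the same order of libraries. A count of 0 in the 65148813 counts of both untreated libraries allows a CPM of CXCL1 of up to 0.046. A count near 0 need not mean that the mRNA was absent, since MIF, which encodes a cytokine that most cells make, also had 0 counts in each library. The transcripts of CXCL1, CXCL2 and CXCL3 resemble each other. Of all 50-base words in the CXCL2 transcripts, 9.63% also occur in those of CXCL3 and 4.16% in those of CXCL1, and to that extent it is uncertain how reads were shared out among them.

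CCL20 (chromosome 2, 227805739 to 227817564), which encodes the ligand of CCR6, had no count in either untreated library and 6 and 5 counts in the doxorubicin libraries. Taken over each group, this was a CPM of 0.178 (95% exact Poisson interval 0.0887 to 0.318, for counting error only) in treated cells. The limit that a count of 0 allows, here 3 counts over both untreated libraries, is a CPM of 0.046. The treated value of 0.178 was 3.86 times this limit. The lower end of its interval, 0.0887, lay closer to the limit, so that 3.86 is not a lower bound of the fold change. The gene was not tested, because it did not pass the filter.

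The DNA before the start sites is shown for the 5 members that share an NF-kappaB-type match, because these hold the sequence feature common to most of the chemokines. RefSeq promoters (GRCh38.p14) matched 9 of the 10 genes by symbol, all but LIF. The 250 bases before each start were searched on both strands for an NF-kappaB-type motif (GGG, any 2 bases, TTTCC), AP-1 (TGANTCA), a C/EBP-type motif (TTGCNNAA) and a TATA box (TATAAA). The NF-kappaB-type motif was found in 5 of the 9 genes and in 1.73% of 35116 promoters. The 120 bases up to the start are printed from 5′ to 3′ on the strand of the gene, with the NF-kappaB-type match in capitals.
CXCL1 (chr4:73869273-73869392, plus strand): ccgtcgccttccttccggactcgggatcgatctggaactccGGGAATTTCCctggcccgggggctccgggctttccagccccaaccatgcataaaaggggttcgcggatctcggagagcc
CXCL2 (chr4:74099196-74099315, minus strand): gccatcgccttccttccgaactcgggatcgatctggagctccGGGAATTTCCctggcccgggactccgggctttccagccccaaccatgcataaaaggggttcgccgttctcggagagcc
CXCL3 (chr4:74038690-74038809, minus strand): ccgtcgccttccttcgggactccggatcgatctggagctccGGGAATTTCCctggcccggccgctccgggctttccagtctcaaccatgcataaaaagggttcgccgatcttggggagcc
IL6 (chr7:22727080-22727199, plus strand): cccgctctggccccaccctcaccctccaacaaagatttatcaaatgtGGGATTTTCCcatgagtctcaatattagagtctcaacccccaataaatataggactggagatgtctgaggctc
CCL20 (chr2:227813722-227813841, plus strand): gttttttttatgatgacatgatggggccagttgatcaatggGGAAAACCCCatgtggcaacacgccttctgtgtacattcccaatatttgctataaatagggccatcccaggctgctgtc

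CXCL1, CXCL2 and CXCL3 carry the same match, from -79 to -70, -78 to -69 and -79 to -70 relative to the start, and their 120 bases were 93.4% (CXCL1 and CXCL2), 90.8% (CXCL1 and CXCL3) and 88.4% (CXCL2 and CXCL3) identical. IL6 had its match from -73 to -64, and CCL20 on the other strand from -79 to -70. The AP-1 motif was found in IL1A, IL11 and CXCL8 (6.57% of all promoters) and the C/EBP-type motif in IL1B, IL6 and CXCL2 (9.05%). The letters TATAAA were found in IL1A, CXCL8 and CCL20 (10.7%). They lay from -31 to -26 in CXCL8 and from -29 to -24 in CCL20. In IL1A they lay far from the start, from -239 to -234 of its upstream start site. CXCL8 holds TGGAATTTCC, which differs from the NF-kappaB-type pattern only in its first letter, so a gene without a match can still hold a close variant. A match is a description of letters, and binding was not measured.

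**Figure D2:**
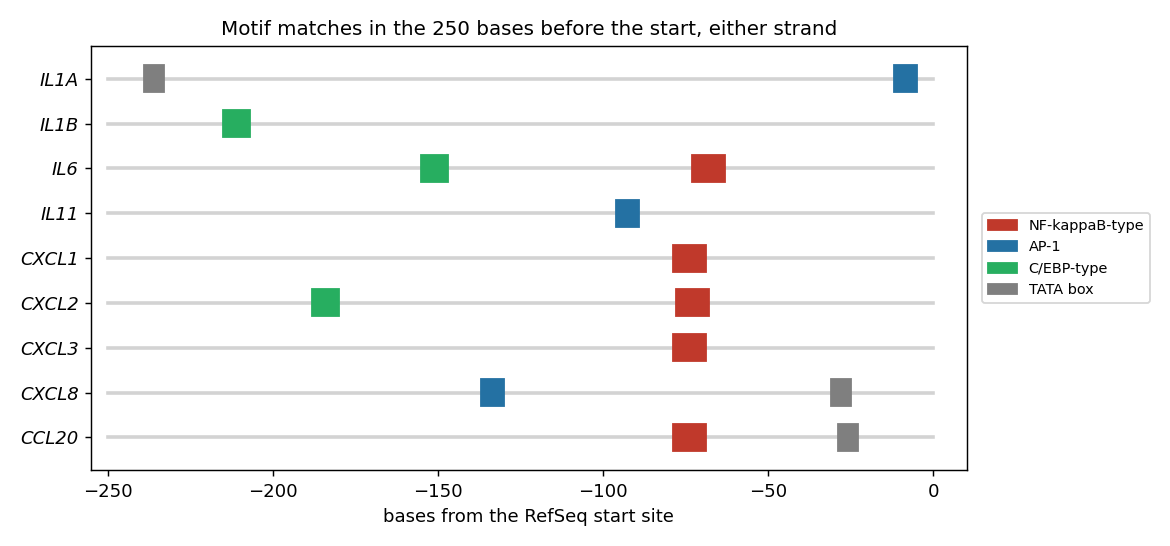
Position of motif matches (coloured boxes, either strand) along the 250 bases before the RefSeq start site (horizontal axis, bases) in 9 members, with the upstream start site of IL1A. The NF-kappaB-type boxes of CXCL1, CXCL2, CXCL3, IL6 and CCL20 lie between -79 and -64.

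The comparison of doxorubicin-treated with untreated cells was tested over 17479 genes with the quasi-likelihood test of edgeR. With all 4 libraries, 0 genes, and so 0 members, were called (0% of genes in either direction), a call being an adjusted p-value under 0.05 where the log2 fold change was also 1 or more in size. The smallest adjusted p-value over all genes (edgeR, Benjamini-Hochberg) was 0.773, as it was for IL1A, IL1B, IL6, CXCL2, CXCL3 and CXCL8. Unadjusted p-values under 0.05 were given to 768 genes by edgeR, with 2.66% of the tested genes higher with doxorubicin, among them IL1B, CXCL8, IL1A and CXCL2. The log2 fold change was 1 or more in 5 members and in 7.67% of all genes. The log2 fold changes were 3.72 (standard error 0.78) for IL1B, 2.43 (0.63) for CXCL8, 1.73 (0.66) for IL1A, 1.41 (0.56) for CXCL2 and 1.16 (0.64) for CXCL3. Those of LIF, IL6 and IL11 were 0.89 (0.68), 0.69 (0.49) and 0.60 (0.50). The median of the 8 tested members was 1.29, beside 0.01 over all genes tested. DESeq2 and the likelihood ratio test of edgeR each called 1 member, IL1B, with Benjamini-Hochberg adjusted p-values of 0.00429 and 0.0294, where they called 0.263% and 0.32% of all genes as higher, while the exact test of edgeR called 0 members and 0.235% of genes. An exact permutation test of 2 against 2 libraries cannot give a two-sided p under 0.333.

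Without untreated replicate 2, 5 members rose with doxorubicin, IL1A, IL1B, CXCL2, CXCL3 and CXCL8, where 4.42% of all genes were called as higher and 0.566% as lower. In this fit the lone untreated library is assumed to vary like the doxorubicin libraries, which are the only replicates left. CXCL8 rose by 3.29 (standard error 0.38) on the log2 scale, with an adjusted p of 9e-15 from edgeR with Benjamini-Hochberg adjustment, as for the values that follow. IL1B rose by 4.55 (0.62; adjusted p 6.36e-11 in edgeR) and IL1A by 2.68 (0.43; adjusted p 6.88e-08 in edgeR). CXCL3 rose by 1.89 (0.56; adjusted p 0.017 in edgeR) and CXCL2 by 1.39 (0.44; adjusted p 0.0313 in edgeR). IL6 had 0.63 (0.34; adjusted p 0.282 in edgeR), LIF 0.22 (0.25; 0.675) and IL11 0.14 (0.25; 0.813), and these 3 were not called.

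When untreated replicate 1 was left out instead, the members divided differently. LIF (log2 fold change 2.24, standard error 0.29) and IL11 (1.29, 0.27) were then called with IL1A, IL1B, CXCL2 and CXCL8, while CXCL3 (0.61, 0.49) and IL6 (0.75, 0.35) were not, in a fit that called 21.4% of all genes as higher and 19.6% as lower. IL1A, IL1B, CXCL2 and CXCL8 were called against either untreated library alone. For CXCL2 and IL6 the log2 fold change hardly depended on which untreated library was used, at 1.39 and 1.44 for CXCL2 and at 0.63 and 0.75 for IL6. For LIF it ranged from 0.22 to 2.24. Both fits share the doxorubicin libraries, so they are not independent of each other.

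**Figure D3:**
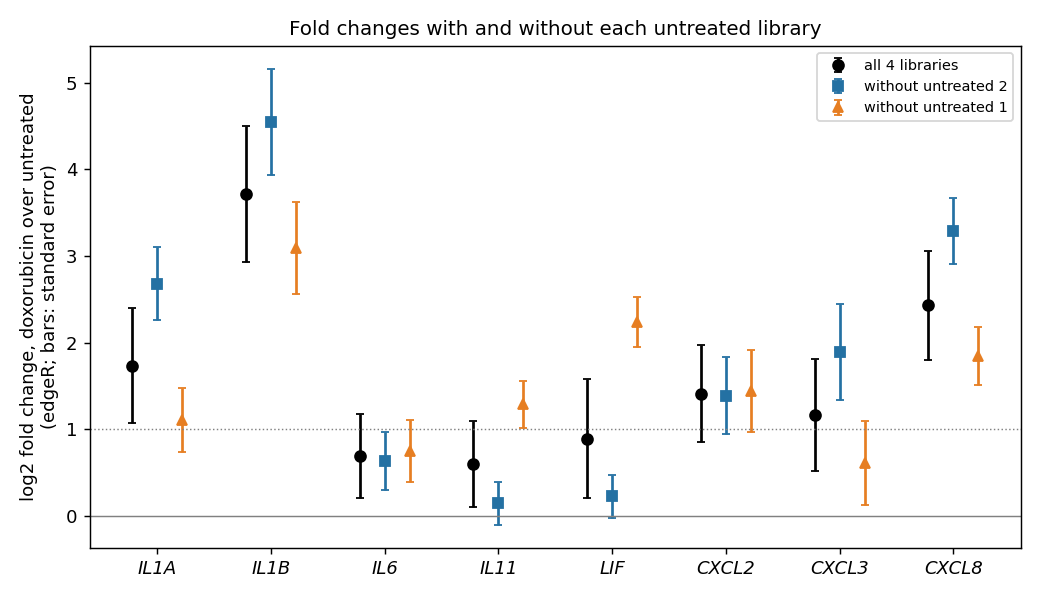
Log2 fold change of doxorubicin over untreated cells (vertical axis, edgeR, bars are standard errors) for the 8 tested members with all 4 libraries (black), without untreated replicate 2 (blue) and without untreated replicate 1 (orange), with a dotted line at 1. IL1B and CXCL8 lie above 1 in all 3 fits, while LIF and IL11 lie near 0 without untreated replicate 2.

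Levels were compared between genes as CPM per kilobase of exon. In the doxorubicin libraries IL11 was the highest at 17.5 and 15.9, followed by LIF at 12.1 and 12.2 and CXCL8 at 6.75 and 9.69 CPM per kilobase. Next came IL6 (4.37 and 3.48), IL1A (3.16 and 4.44), IL1B (2.30 and 4.52) and CXCL2 (3.50 and 2.57), whose levels overlapped and cannot be ordered, and then CXCL3 (1.84 and 1.72). CCL20 had 0.208 and 0.215 CPM per kilobase. In untreated replicate 1 the order began with IL11 (13.7), LIF (9.42) and IL6 (2.31), and IL1B was the lowest of the tested members at 0.128, below CXCL3 at 0.436 and IL1A at 0.533. CXCL8 had 0.757 CPM per kilobase there, below CXCL2 at 1.06, and it stood above CXCL2 in the other 3 libraries. In doxorubicin replicate 2 IL1B (4.52) thus stood beside IL1A (4.44) and above CXCL2 (2.57), while in doxorubicin replicate 1 it was below both.

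**Figure D4:**
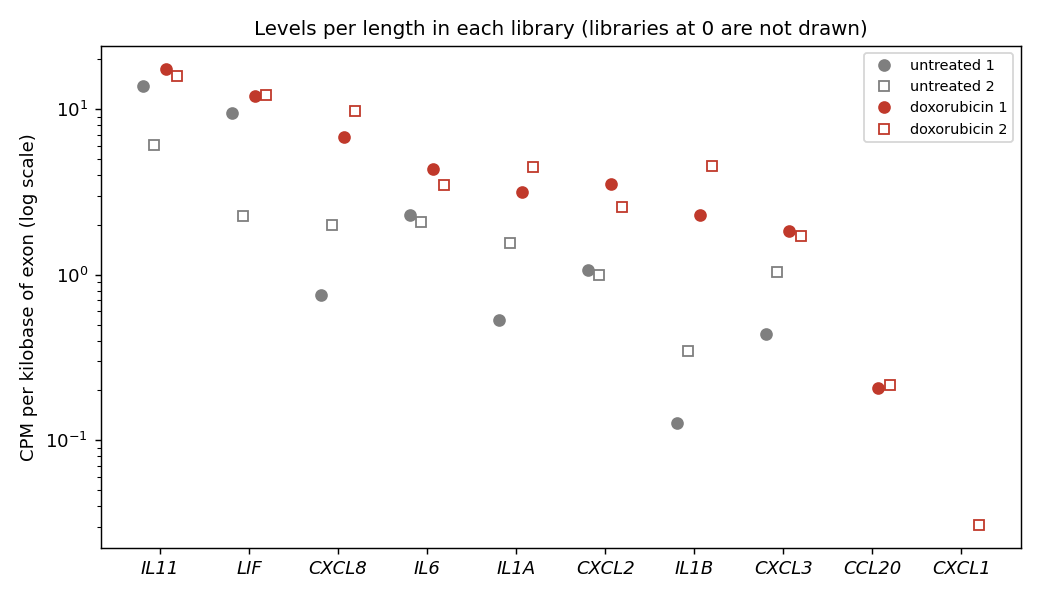
CPM per kilobase of exon (vertical axis, log scale) of the 10 genes in order of their mean, in untreated (grey) and doxorubicin (red) libraries, with circles for replicate 1 and open squares for replicate 2. IL11 and LIF are highest, the treated levels of IL6, IL1A, CXCL2 and IL1B overlap, and libraries with a count of 0 are not drawn.

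LIFR, the receptor chain of LIF, had a CPM of 168.3 and 62.0 without the drug and 110.6 and 167.7 with it, and IL6ST, which encodes gp130, had 53.04 and 49.90 against 74.72 and 115.8. IL1RAP, the co-receptor of IL-1, had between 28.6 and 50.6, and IL6R between 11.05 and 22.67. IL1R1, the signalling receptor of IL-1, had 1.57 and 0.519 without the drug and 3.58 and 3.26 with it. IL11RA, the receptor chain of IL-11, had 59 and 286 counts without the drug and 84 and 85 with it, at a log2 fold change of -1.20 with all libraries and of 0.62 without untreated replicate 2. The chemokine receptors CXCR1 and CXCR2 had at most 6 and 7 counts in any library and CCR6 had 0 in all 4, so for the chemokines the ligand was counted with little or no count of its receptor. Of the 9 receptors 6 were tested, and 0 were called by edgeR with all libraries (0 at an unadjusted p under 0.05) or without untreated replicate 2 (2 at an unadjusted p under 0.05). The median log2 fold change was 0.26 with all 4 libraries and 0.37 without untreated replicate 2, where the median of all genes was 0.05.

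The natural inhibitors of these signals were measured in 6 of 10 genes, and 0 were called with all libraries by edgeR (0 at an unadjusted p under 0.05). IL1RN, the antagonist of the IL-1 receptor, had 2 and 11 counts without the drug and 32 and 24 with it. IL1RN reached the filter in both doxorubicin libraries but not in untreated replicate 1, so that a difference was built into its passing. Without untreated replicate 2 its log2 fold change was 3.81 (standard error 0.96), against the 2 counts of untreated replicate 1. IL36RN, named after its values were seen, was also higher in that fit. It had 0 and 194 counts without the drug and 39 and 19 with it. ACKR3, a scavenging receptor of chemokines, had a CPM of 12.5 and 2.56 without the drug and 20.2 and 14.8 with it. TOLLIP, which dampens IL-1 signalling, had between 66.2 and 88.9. Of the adaptors and kinases downstream, 12 of 13 were tested and 0 were called in either fit (0 at an unadjusted p under 0.05 in edgeR in both). Among them MYD88, the adaptor of the IL-1 receptor, had 446 counts in untreated replicate 2 and between 6 and 18 in the other libraries, while IRAK1 had a CPM between 669.1 and 782.5 and STAT3 between 233.3 and 356.1.

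Genes that these signals are known to induce were tested in 11 of 11 cases. With all libraries 0 were called and 1, PIM1, had an unadjusted p under 0.05 in edgeR. PIM1, a kinase gene induced by STAT3, had a CPM of 37.1 and 38.6 without the drug and 88.0 and 135.0 with it. Without untreated replicate 2 it rose by 1.44 (standard error 0.25, adjusted p 1.32e-06, edgeR with Benjamini-Hochberg adjustment). PIM1 is also in the study's own list of genes chosen on these samples. NFKBIZ and PTGS2, named after their values were seen, were called in that fit too (3 of 11 in all, against 4.42% of all genes), but their highest library was untreated replicate 2, at a CPM of 12.6 and 30.1. TNFAIP3, which restrains NF-kappaB, had 22.5 and 20.1 without the drug and 39.5 and 40.4 with it and was not called. Over the list the log2 fold change had a median of 0.14, or of 0.67 without untreated replicate 2.

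Among 17 genes for the maturation and release of IL-1, 14 were tested, 0 were called with all libraries and 4 had an unadjusted p under 0.05 in edgeR, 3 of them higher with doxorubicin (against 2.66% of all genes). NLRP1, a sensor that activates caspase-1, had a CPM of 1.10 and 1.49 without the drug and 11.4 and 9.29 with it. AIM2, a sensor of cytosolic DNA, had 1 and 0 counts against 15 and 13, and it passed the filter only through the doxorubicin libraries, so that a difference was built into its passing. Once untreated replicate 2 was set aside, 4 genes of the list were called as higher, against 4.42% of all genes. These were NLRP1 at a log2 fold change of 3.09 (standard error 0.41), AIM2 at 3.74 (1.21), and CASP1 and CASP4 at 1.59 (0.53) and 1.015 (0.25), the latter pair named after their values were seen. CASP1, which encodes caspase-1, had a CPM of 0.579 and 0.831 without the drug and 1.75 and 2.14 with it. PYCARD, the adaptor that joins most inflammasome sensors to caspase-1, and the sensor NLRP3 did not pass the filter, and PYCARD, named after its values were seen like NLRP3, had at most 6 counts in any library. Of the 10 factors that bind and turn over such mRNAs, all 10 were tested and 0 were called with all libraries (0 at an unadjusted p under 0.05 in edgeR), with a median log2 fold change of -0.26. HNRNPD had a CPM of 270.7 and 91.5 without the drug and 242.2 and 246.7 with it, and KHSRP 347.4 and 307.8 against 264.4 and 241.5. With untreated replicate 1 as the lone control, the median was -0.06, with 5 of the 10 genes above 0. ZFP36L1, named after its values were seen, then had the largest value of the 10, at 1.00 (standard error 0.24).

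Of 54 other cytokines and chemokines, 17 passed the filter and 37 did not. Genes that did not pass could still be counted in a single library, as CSF3 was with 61 counts and CXCL14 with 53 in untreated replicate 2. TNF had 0 counts in all 4 libraries, which need not mean that its mRNA was absent. CXCL5 and CXCL6, which also draw neutrophils, had at most 2 and 3 counts. CSF2, which did not pass the filter, had 0 and 2 counts without the drug and 7 and 7 with it. These 6 genes are named after their values were seen. With all libraries 0 of the 17 were called (0 at an unadjusted p under 0.05 in edgeR) and their median log2 fold change was -0.13, beside 1.29 in the members. TNFSF9 had a CPM between 141.5 and 164.2 and IL18 between 65.6 and 105.9. CCL2, which draws monocytes, had 2.81 and 2.81 without the drug and 1.46 and 1.85 with it. Once untreated replicate 2 was set aside, the median of the list was 0.41. IL24 and TSLP, named after their values were seen, then had log2 fold changes of 3.84 and 2.19. Both reached the filter in the doxorubicin libraries but not in untreated replicate 1, so that a difference was built into their passing.

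Of 29 other factors of the senescence-associated secretory programme, 25 were tested. With all libraries 0 were called, 6 were higher (against 2.66% of all genes) and 1 lower at an unadjusted p under 0.05 in edgeR, and the median log2 fold change was 0.38. IGFBP3, a carrier of insulin-like growth factors, had a CPM of 240.3 and 172.1 without the drug and 1197 and 1011 with it. STC1, a secreted glycoprotein, had 1.16 and 0.693 against 17.8 and 13.4. In both genes the groups were farther apart than any 2 replicates. With untreated replicate 1 as the lone control, the median over the list was 0.80, with IGFBP3 at 2.06 (standard error 0.24) and STC1 at 3.61 (0.40). SERPINB2, among the 6 higher genes, and IGFBP5 passed the filter only through the doxorubicin libraries. MMP1 and TNFRSF10C reached it in both doxorubicin libraries but not in untreated replicate 1. A difference was thus built into the passing of these genes, which are named after their values were seen.

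The acute-phase genes, which liver cells are known to make in answer to IL-6 and IL-1, were tested in 7 of 17 cases, and the other 10 did not pass the filter. With all libraries 0 were called. The 3 fibrinogen genes FGA, FGB and FGG had an unadjusted p under 0.05 in edgeR, all higher with doxorubicin (against 2.66% of all genes). All 3 passed the filter only through the doxorubicin libraries, so that a difference was built into their passing, and FGA is named after its values were seen. FGG had 6 and 3 counts without the drug and 335 and 386 with it, and FGB had 7 and 5 against 106 and 70. The log2 fold change of FGG was 6.23 with all libraries and 5.99 without untreated replicate 2, where FGB had 3.71 and FGA 2.87. The median over the 7 tested genes was 0.14, or 0.52 without that library. C3 had a CPM between 131.3 and 182.5 and CEBPB between 174.7 and 327.4, and neither was called with all libraries.

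**Figure D5:**
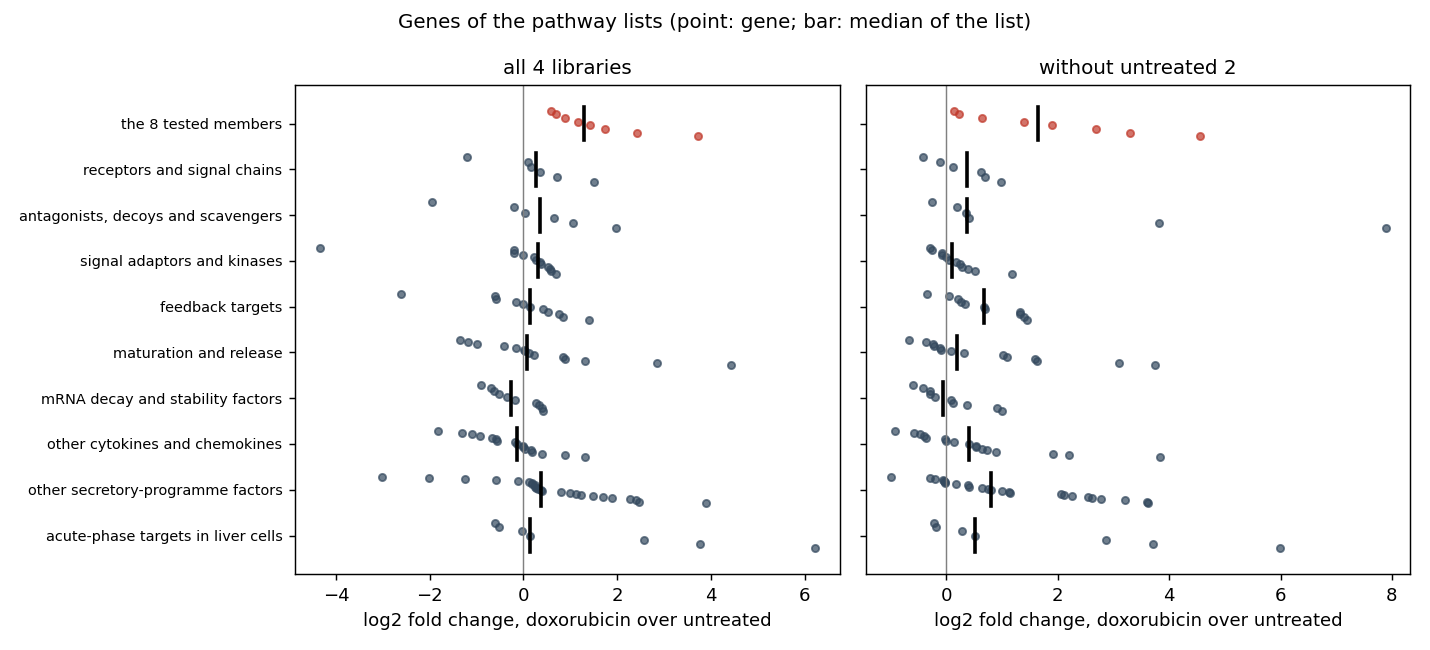
Log2 fold change of doxorubicin over untreated cells (horizontal axes, edgeR) with all 4 libraries (left) and without untreated replicate 2 (right), for the 8 tested members (red) and the tested genes of each pathway list (dark points), with a black bar at the median. The members lie between 0.60 and 3.72 on the left, where the list medians lie between -0.26 and 0.38.

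Markers of other cells that make these cytokines were examined because, in bulk RNA, more cells of a type and more RNA per cell cannot be told apart. Of 18 markers of blood and immune cells, 6 passed the filter, and the summed CPM of all 18 was 4.19 and 25.9 without the drug and 19.4 and 15.2 with it. PTPRC, which encodes the common leukocyte antigen CD45, had 3, 12, 1 and 0 counts, and CD68, AIF1, LST1 and CD2 had 0 in all libraries. As for CXCL1 and MIF, a count of 0 need not mean that the mRNA was absent. S100A8 passed the filter only through the doxorubicin libraries. S100A9 and ITGAX reached it in both doxorubicin libraries but not in untreated replicate 1. Among those that passed, S100A9 had a CPM of 0.303 and 0.346 without the drug and 8.25 and 5.15 with it, S100A8 0.0276 and 0.277 against 3.53 and 2.54, and CD14 had 16.7 in untreated replicate 2 and at most 1.13 elsewhere. Of 8 fibroblast markers, 6 passed, at a summed CPM of the whole list of 226.1 and 169.8 without the drug and 283.8 and 284.4 with it. Their directions were mixed. LUM had 65.4 and 49.3 against 135.5 and 162.6 and DCN 0.469 and 0.623 against 7.69 and 6.86, while COL3A1 had 70.0 and 69.1 against 55.8 and 46.0, COL1A1 84.4 and 46.4 against 79.2 and 64.3, and COL1A2 no more than 2 counts. Of 6 endothelial markers, 5 passed, at a summed CPM of 10.4 and 7.45 against 4.58 and 3.84, of which CDH5 made up the most in untreated cells (8.52 and 3.29 against 1.46 and 0.943). TEK had 0.221 and 0.208 against 0.670 and 0.472 and PECAM1 had between 0.935 and 1.16. Like S100A8, TEK passed the filter only through the doxorubicin libraries. Of 7 epithelial markers, 3 passed, at a summed CPM of 5902 and 4755 against 3534 and 3030, and EPCAM, CDH1, KRT19 and KRT5 had at most 21 counts in any library. Without untreated replicate 2, edgeR called ITGAX, S100A8, S100A9, DCN and LUM of these lists as higher and CDH5 as lower, and with all libraries it called 0 of them. Markers are named here after their values were seen. The part of such markers in the values of the members was not tested.

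The 5 genes whose profile was most like the mean of the 8 tested members were RF01233, ATP2B2, TNFRSF25, COL4A3 and LINC00571, at root-mean-square distances between 0.054 and 0.10 of centred log2 CPM over 4 libraries. Among the members themselves, CXCL2 was the closest to the mean profile at 0.27 and IL1B the farthest at 1.06. COL4A3, a collagen gene and the one with the most counts of the 5, had a CPM of 0.800 and 1.04 without the drug and 3.15 and 3.01 with it. With 4 libraries such a likeness says only that the same libraries were high. RF01233 and LINC00571 passed the filter only through the doxorubicin libraries, so that a difference was built into their passing.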

How the data were processed

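The 4 RNA-seq libraries, which the labels call HepG2, were grouped by title and treatment protocol into 2 untreated and 2 doxorubicin libraries (1 ug/ml, 24 h). The authors trimmed reads (FastQC, Cutadapt), aligned to hg38 using HISAT2 and deposited counts per gene, whole numbers without normalization. Their methods name HTSeq, while the file headers have the layout of featureCounts and name GENCODE release 31. Versions and the use of strand are not given in the sources used here. No label says whether the replicates came from separate cultures beyond the term biological replicate, so p-values measure the spread between these libraries.

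The comparison was fitted over 17479 genes kept by filterByExpr in edgeR 4.0.16 (R 4.3.3) using TMM factors, glmQLFTest after glmQLFit without its legacy setting, a prior count of 0.125 and Benjamini-Hochberg adjustment. A gene was called at an adjusted p-value below 0.05 if its log2 fold change was 1 or more in size. The standard error was the log2 fold change divided by the root of F. CPM was the count divided by the library total of 27572740 to 36272180 counts, where 3 counts correspond to a CPM of 0.0827 to 0.109. Positions and exon lengths came from GENCODE release 44 (GRCh38, basic transcripts). The scripts were tested on simulated data. Alternatives were the exact and likelihood ratio tests, DESeq2 1.42.0, RLE, upper-quartile and no scaling factors, 2 other filters, a prior count of 2, the replicate block and leaving out each library. An earlier form of the fit and a crossed block were added after seeing the data.

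The members and lists were chosen with earlier results of these data known. Genes named are the 10 members, the receptors and, per list, up to 4 genes, 2 with the smallest p and 2 with the highest mean CPM, with others, cell type markers included, named after their values were seen. Some genes serve in 2 lists.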

Additional observations from a re-analysis of the deposited data

How the results depend on the processing

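With all 4 libraries the quasi-likelihood test of edgeR called 0 genes and 0 members (768 genes at an unadjusted p under 0.05), and 0 of both also under the other scalings (RLE, upper-quartile, none), under either other filter, with a prior count of 2 and in the earlier form of the fit. The exact test called 46 genes, the likelihood ratio test 64 and DESeq2 89, with 0, 1 and 1 members, the member being IL1B. The cause was not tested. With each library left out in turn, between 0 and 7173 genes and between 0 and 6 members were called. These were 871 genes and 5 members without untreated replicate 2, 7173 and 6 without untreated replicate 1, and 0 without either doxorubicin library. With the replicate block 20 genes and 0 members were called. The deviations of libraries with the same number correlated at 0.0219, and with 2 pairs they share only a number. The crossed replicate block called 0 genes. All 128 log2 fold changes of the 8 tested members under 16 alternatives were above 0. In all 8, both doxorubicin libraries lay above both untreated libraries. The sign was thus largely fixed by this order and is no separate support. Among the fits of all 4 libraries, only IL1B passed thresholds that its main value did not, in DESeq2 and the likelihood ratio test. The log2 fold changes of IL1B ranged from 3.09 to 4.55. Those of CXCL8 ranged from 1.84 to 3.29, of IL11 from 0.14 to 1.29 and of LIF from 0.22 to 2.24. CXCL1 and CCL20 had 1 and 11 counts in all, too few to pass the filter, and why they were so few was not tested.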
